A study of Mus musculus with 4 samples.

Results

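The complement components and regulators are a set of 31 mouse genes, chosen by name, and a gene's values came from the probe sets annotated to that symbol alone. Of the 31, 26 had such a probe set, with 47 probe sets among them, out of 18193 genes with 1 on the array. A test was made for 20 of them, out of 12797 genes tested in all. C1rl, C3, C4b, C7 and C5ar2 were not analysed here. For C4b the probe set was shared with C4a, and probe sets annotated to several genes were not used. Masp2, Mbl2, Hc, C6, C8g and C9 were measured but were too dim to test.

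The samples were endometriotic lesions of mice, meaning tissue like the womb lining that grows elsewhere in the body, on 4 arrays. The tested condition was a high-fat diet (2 arrays, replicates 1 and 2), set against a casein diet that the labels name as the control (2 arrays, replicates 1 and 2). Strain, genotype, age, time on the diet and the number of mice or lesions behind each array were not given in the sources used here, and the series title places the lesions in an immunocompetent mouse model. Nothing says that replicates came from separate mice, so p-values measure only the spread between these arrays, which may be technical. Values are intensities, a linear measure of a probe set's brightness, and they compare arrays but not one gene with another.

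Complement is a cascade of blood and tissue proteins that marks microbes, dead cells and immune complexes for removal. The classical route starts with C1q on antibody or dying cells, the lectin route with sugar-binding proteins, and the alternative route with spontaneous C3 turnover. Properdin stabilises the enzyme of the alternative route. All routes split C3 and then C5, which releases small fragments that act on receptors of myeloid cells, and the last components assemble into a membrane pore. The liver makes most of the circulating components, whereas macrophages are the main source of C1q, and regulators on cells and in fluid keep host tissue from attack.

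The arrays carried the marks of uterine tissue, but markers of other tissues were also present and unequal. All 6 endometrial stroma markers (among them the steroid receptor genes Esr1 and Pgr) were above the filter on dim genes. All 7 epithelial markers were above it too, but they are not particular to the uterus. Krt8 and Krt19 were highest in casein diet replicate 1 (10009 and 5236). The 4 markers of gastric mucosa summed to intensities of 244 and 254 in the high-fat diet arrays and to 51840 and 8919 in the casein diet arrays. The 4 intestine markers summed to 127 and 165 in the high-fat diet arrays and to 3567 and 247 in the casein diet arrays, with all 4 separated downward. The 4 skeletal muscle markers summed to 16400 and 627 in the high-fat diet arrays, against 510 and 759 in the casein diet arrays. High-fat diet replicate 1 therefore held the muscle signal. The gastric signal was highest in casein diet replicate 1, but all 4 gastric markers were higher in both casein diet arrays than in either high-fat diet array, so it went with the diets and leaving out 1 array does not remove it. Its part in the results was not tested. For several of the 20 tested complement genes, a difference that turns on 1 array is also given without that array. No such value is given for other genes. The median intensity of all probe sets lay between 55.1 and 56.5 in the 4 arrays. In such bulk tissue, fewer cells of a type and less RNA per cell cannot be told apart.

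C3ar1 and C5ar1, for the receptors of the fragments C3a and C5a, and Cfp (properdin) were about 2-fold higher on the high-fat diet. These values came from their brightest probe sets. The soluble regulators clusterin and factor I were lower. The 6 tested genes of the classical pathway overlapped between diets, with log2 differences of -0.06 to 0.23. The intervals of its C1q genes left room for a difference in either direction. No complement gene passed limma's test across all genes after Benjamini-Hochberg adjustment (0 of 20 at an adjusted p under 0.05, smallest adjusted p = 0.856), as was the case for 0% of the 12797 genes tested. At an unadjusted p under 0.05 there were 4 of the 20, namely Clu, Cfp, C5ar1 and C3ar1, or 20%, where 4.97% of all tested genes had such a p. Membership in this group depended on the fit: with the replicate number as a block, the unadjusted p was 0.0534 for C3ar1, 0.03 for Cfi and 0.0433 for Fcna. Both high-fat diet arrays lay above both casein diet arrays for 5 of the 20 (Masp1, Cfp, C3ar1, C5ar1 and Serping1), against 16.6% of all tested genes. Both lay below for 4 of the 20 (Fcna, Cfb, Cfi and Clu), against 19.3% of all tested genes. The median log2 difference, high-fat diet minus casein diet, was 0.07 over the 20 genes and -0.0051 over all tested genes, and 13 of the 20 had a positive difference where 48.6% of all tested genes did. The count of positive differences was 9 of 20 without high-fat diet replicate 1 and 10 of 20 without casein diet replicate 1, and the median without high-fat diet replicate 1 was -0.0049. A difference of at least 0.5 log2 in either direction was found for 7 of the 20, and for 9.92% of all tested genes.

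**Figure D1:**
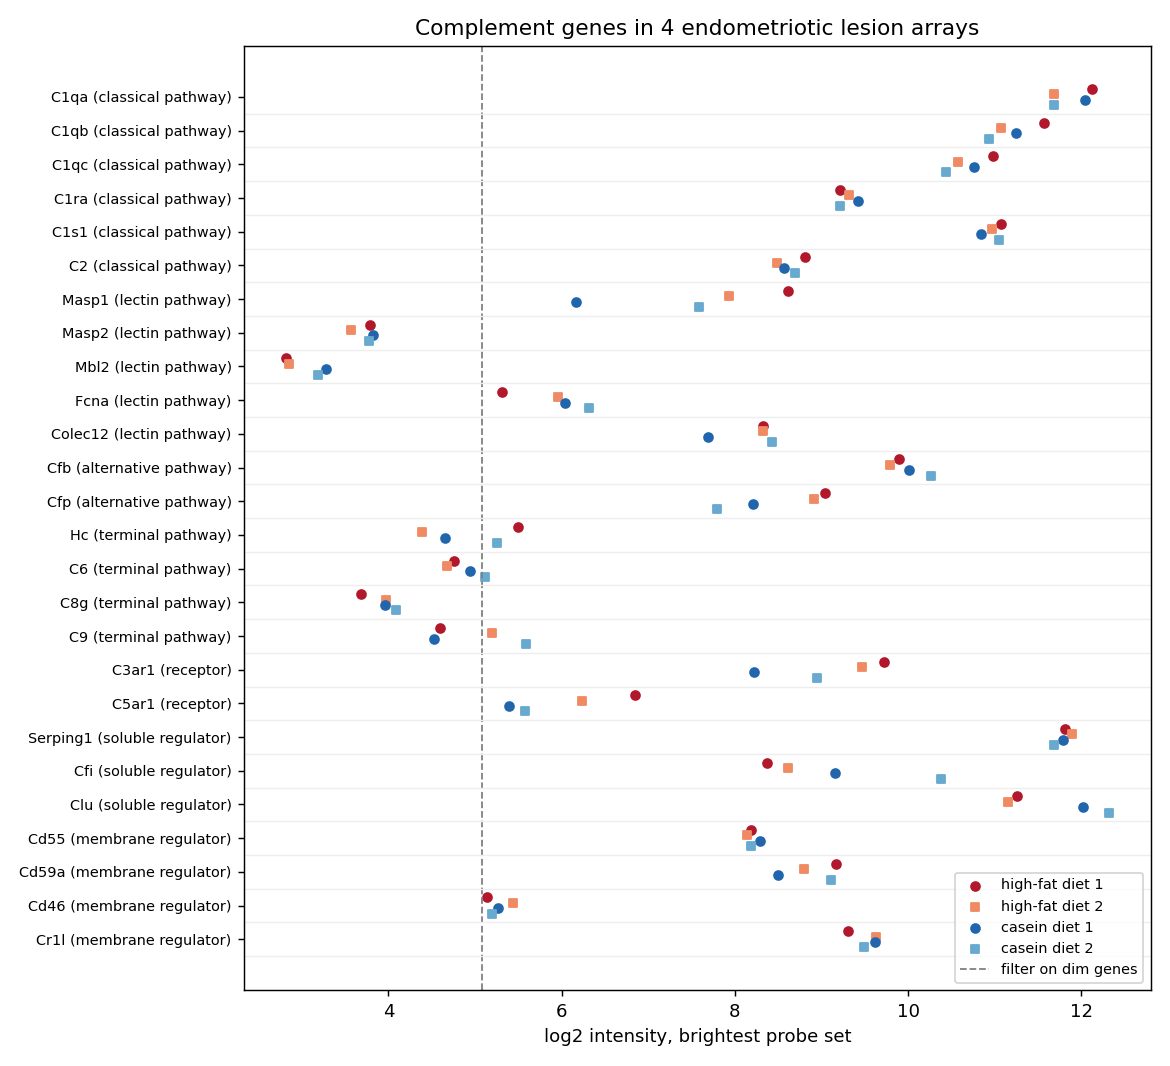
Log2 intensity of the brightest probe set of the 26 complement genes measured (rows, grouped by role) in each of the 4 arrays (red, high-fat diet; blue, casein diet; circles, replicate 1; squares, replicate 2), with the filter on dim genes as a dashed line. Both red points lie to the right of both blue points for Masp1, Cfp, C3ar1, C5ar1 and Serping1. They lie to the left for Fcna, Cfb, Cfi and Clu, and for the untested genes C6 and Mbl2. Over all tested genes the shares were 16.6% and 19.3%. The 4 terminal pathway genes lie around or below the filter.

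**Figure D2:**
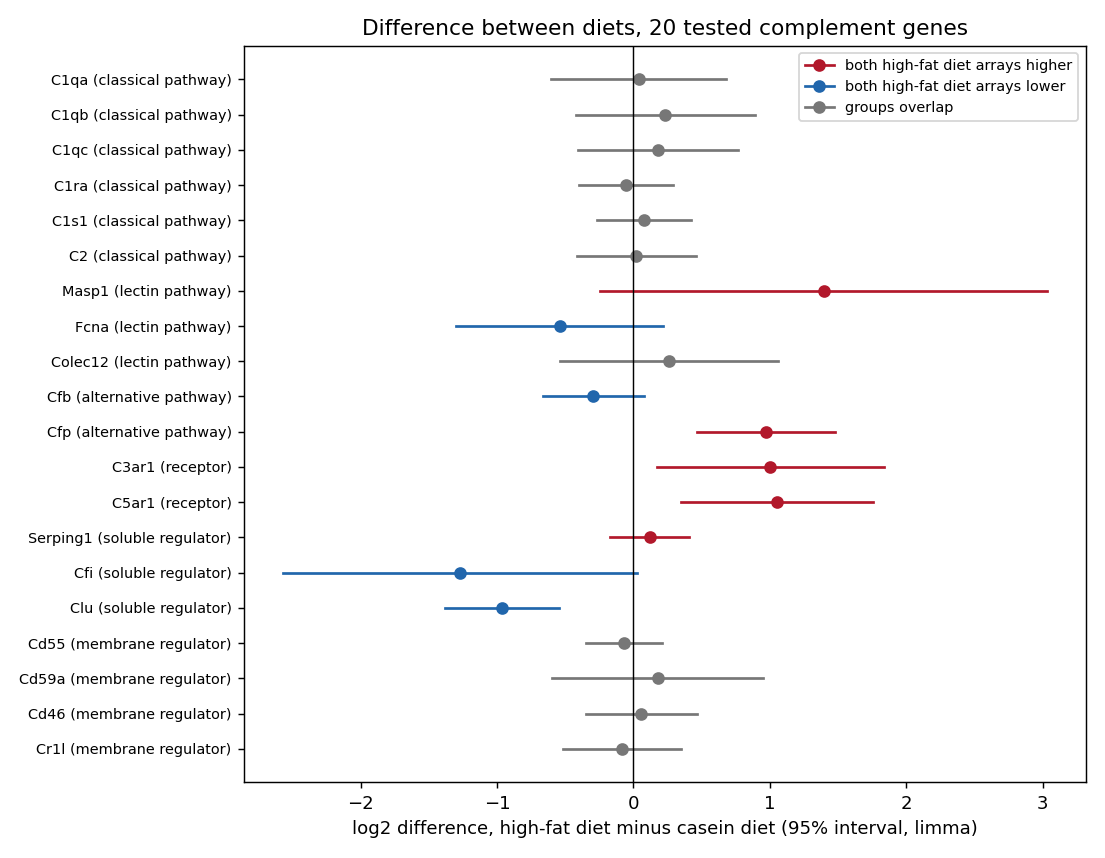
Log2 difference between diets (high-fat diet minus casein diet, point) with limma's 95% interval (line) for the 20 complement genes tested. The intervals of Cfp, C3ar1, C5ar1 and Clu leave out 0, and no gene passed after adjustment over all genes.

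Among the receptors, C3ar1, which encodes the receptor for the C3 fragment C3a, had intensities of 842 and 707 in the high-fat diet arrays, against 299 and 495 in the casein diet arrays. Its log2 difference was 1.005 (SE 0.29, 95% interval 0.17 to 1.84, limma unadjusted p = 0.0287, adjusted p = 0.863), or 2.01-fold. Both high-fat diet arrays were above both casein diet arrays, and casein diet replicate 1 was the lowest. Without that array the difference was 0.64. All 3 probe sets of C3ar1 were above the filter and separated the diets in the same direction, with differences of 0.50 to 1.05. C5ar1, which encodes the receptor through which the C5 fragment C5a attracts and activates neutrophils and macrophages, had intensities of 115 and 75.4 in the high-fat diet arrays, against 41.9 and 47.9 in the casein diet arrays. The log2 difference of C5ar1 was 1.06 (SE 0.25, 95% interval 0.35 to 1.76, limma unadjusted p = 0.0146, adjusted p = 0.863), or 2.08-fold, and it stayed between 0.75 and 1.36 when 1 array was left out. High-fat diet replicate 1 was the highest and the diets did not overlap. Its casein diet values lie not far above the filter of 33.9. A dimmer probe set of C5ar1, below the filter, differed by 0.23, and the mean of both gave 0.64.

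Markers of the myeloid cells that carry these receptors did not separate the diets as lists. The 10 macrophage markers summed to 22960 and 19010 in the high-fat diet arrays, against 19250 and 20390 in the casein diet arrays, so their sums overlapped. Of these markers, 7 of 10 had a positive difference, 2 were separated upward and 3 downward, and Timd4 was below the filter. Lyz2 (lysozyme) and Csf1r (the receptor for macrophage growth factor), the brightest of the list, differed by 0.03 and 0.05. The sums rest largely on Lyz2, which had 13482 and 10955 in the high-fat diet arrays, against 11688 and 12087 in the casein diet arrays. Of the separated markers, Cd68 and Mertk differed by 0.51 and 0.30, and Cd163, Timd4 and Mrc1 by -1.06, -0.59 and -0.12. Cd163 lay around the filter of 33.9, at 23.8 to 52.5. The 5 of 7 neutrophil markers with a probe set summed to 5115 and 1376 in the high-fat diet arrays, against 1108 and 1701 in the casein diet arrays. High-fat diet replicate 1 held the highest sum through S100a8 (3477) and S100a9 (1180), the granule genes Mpo and Elane were below the filter, and 0 of the 5 separated the diets. The part of these cells in the receptor differences was not tested.

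In the alternative pathway, Cfp, which encodes properdin, the stabiliser of the alternative pathway enzyme that is released by neutrophils and other leukocytes, had intensities of 524 and 484 in the high-fat diet arrays, against 295 and 222 in the casein diet arrays. Its log2 difference was 0.97 (SE 0.18, 95% interval 0.47 to 1.48, limma unadjusted p = 0.00626, adjusted p = 0.856), or 1.96-fold. The diets did not overlap, and the difference stayed between 0.77 and 1.18 when 1 array was left out. The second probe set of Cfp was also above the filter and was nearly flat, with a difference of 0.09 and intensities of 261 and 284 in the high-fat diet arrays, against 250 and 259 in the casein diet arrays. The mean of both probe sets gave a difference of 0.53. Cfb, which encodes factor B, the protease zymogen of the same pathway, had intensities of 948 and 888 in the high-fat diet arrays, against 1032 and 1224 in the casein diet arrays. Factor B thus lay on the other side from properdin, with a log2 difference of -0.29 (SE 0.13, limma unadjusted p = 0.0911, adjusted p = 0.863). That difference was -0.17 without casein diet replicate 2.

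The 200 bases before the RefSeq start (build GRCm38.p6) of C3ar1, C5ar1 and Cfp are shown, since these 3 genes shared their direction. Masp1 and Serping1 shared it too and are not shown. Capitals mark matches, on either strand, to 3 motifs: GAGGAA (the core bound by the myeloid factor PU.1), TGANTCA (AP-1) and TTCNNNGAA (STAT factors).
C3ar1, chr6:122856158-122856357, minus strand: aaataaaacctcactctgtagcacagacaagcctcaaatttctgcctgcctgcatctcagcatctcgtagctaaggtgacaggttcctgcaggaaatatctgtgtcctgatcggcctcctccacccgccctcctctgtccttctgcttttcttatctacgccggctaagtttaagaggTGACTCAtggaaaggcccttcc
C5ar1, chr7:16259339-16259538, minus strand: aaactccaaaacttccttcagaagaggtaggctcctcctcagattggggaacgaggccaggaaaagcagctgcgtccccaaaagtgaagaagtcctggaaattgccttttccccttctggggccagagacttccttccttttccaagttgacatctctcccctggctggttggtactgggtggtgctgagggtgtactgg
Cfp, chrX:20931556-20931755, minus strand: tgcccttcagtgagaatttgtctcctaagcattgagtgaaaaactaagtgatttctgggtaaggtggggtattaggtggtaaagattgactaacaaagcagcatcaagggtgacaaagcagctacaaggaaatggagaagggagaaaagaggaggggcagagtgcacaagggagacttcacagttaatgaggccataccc
The only match in these 3 windows is TGACTCA in C3ar1, close to its start. Over the same 200 bases, TGANTCA occurred in 5.48% of 32851 promoter windows, TTCNNNGAA in 5.49% and GAGGAA in 19.0%. Of 22 complement genes with a promoter entry, TGANTCA was found in C8g and C3ar1, and TTCNNNGAA in Masp2 and C7.

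In the lectin pathway, Masp1, which encodes a serine protease that circulates with the sugar-binding proteins and starts the lectin route, had intensities of 391 and 243 in the high-fat diet arrays, against 71.6 and 191 in the casein diet arrays. The log2 difference of Masp1 was the largest of the 20 in the positive direction, 1.40 (SE 0.58, 95% interval -0.24 to 3.03, limma unadjusted p = 0.0764, adjusted p = 0.863), or 2.63-fold. Its size turned on casein diet replicate 1, the lowest array: the difference was 0.69 without it and 2.11 without casein diet replicate 2. All 5 probe sets of Masp1 had a positive difference (0.26 to 1.48), of which 2 were above the filter, and the mean of all 5 gave 0.88. Both probe sets above the filter have names that mark probes able to match several transcripts, so other transcripts could add to them. The 6 endometrial stroma markers summed to 9573 and 10050 in the high-fat diet arrays, against 9083 and 10380 in the casein diet arrays, so their sums overlapped. Of the 6, 3 were lowest in casein diet replicate 1 (Hoxa10, Hoxa11 and Hand2), whereas Esr1, Pgr and Wnt5a were lowest in a high-fat diet array. Whether this bears on Masp1 was not tested.

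Fcna, which encodes ficolin A, a sugar-binding starter of the lectin route made by macrophages, had intensities of 39.8 and 62.1 in the high-fat diet arrays, against 65.9 and 79.6 in the casein diet arrays. These values lie not far above the filter of 33.9. The difference was -0.54 (SE 0.27, limma unadjusted p = 0.117, adjusted p = 0.863). Leaving out high-fat diet replicate 1 gave -0.22. Colec12, a collectin scavenger receptor, had 320 and 319 in the high-fat diet arrays, against 206 and 344 in the casein diet arrays, so that the diets overlapped. Without casein diet replicate 1 its difference changed sign, to -0.11. The liver genes Masp2 and Mbl2, for the protease and the mannose-binding lectin of this route, were below the filter in every array, at 7.02 to 14.1.

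**Figure D3:**
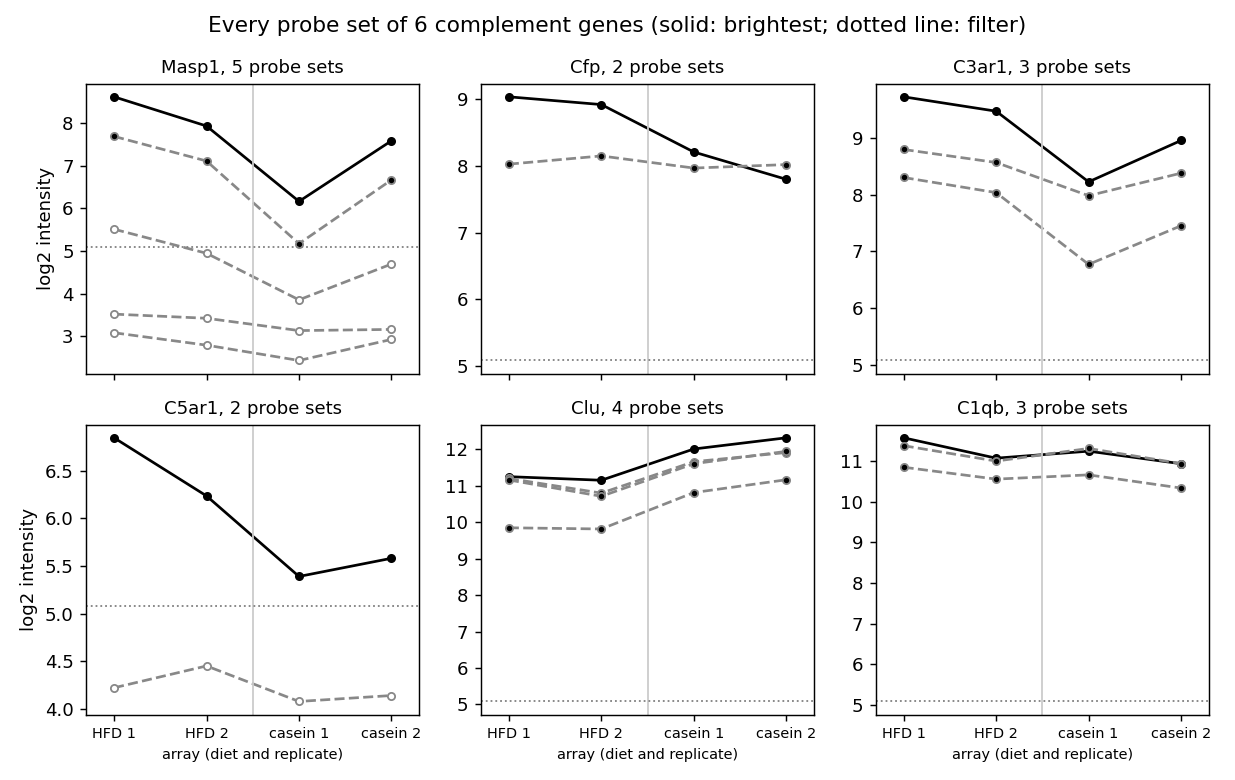
Log2 intensity of every probe set of 6 complement genes in the 4 arrays (high-fat diet 1 and 2, then casein diet 1 and 2; solid line, brightest probe set; dashed lines, the others; open points, mean below the filter, which is the dotted line). The 4 probe sets of Clu share a direction, as do the 3 of C3ar1, whose differences run from 0.50 to 1.05. The second probe set of Cfp is nearly flat, and the 3 of C1qb are higher in replicate 1 of either diet.

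Among the soluble regulators, Clu, which encodes clusterin, a secreted chaperone that blocks the membrane pore, had intensities of 2443 and 2282 in the high-fat diet arrays, against 4135 and 5117 in the casein diet arrays. Its log2 difference was -0.96 (SE 0.15, 95% interval -1.38 to -0.55, limma unadjusted p = 0.00333, adjusted p = 0.856), a level 1.95-fold higher in casein diet lesions, and this was the smallest p of the 20 genes. The diets did not overlap on any of the 4 probe sets of Clu, whose differences ran from -1.16 to -0.79. All but the dimmest of the 4 have names that mark probes able to match other transcripts, which could add to them. With 1 array left out the difference stayed between -1.12 and -0.81. Cfi, which encodes factor I, the protease that cuts C3b and C4b into inactive forms, had intensities of 332 and 392 in the high-fat diet arrays, against 571 and 1328 in the casein diet arrays. The diets did not overlap, but the casein diet arrays differed from each other by more than the nearer of them did from the high-fat diet arrays. The difference of Cfi was -1.27 (SE 0.46, 95% interval -2.57 to 0.03, limma unadjusted p = 0.0529, adjusted p = 0.863), which became -0.66 without casein diet replicate 2 and -1.88 when casein diet replicate 1 was left out. Serping1, which encodes the C1 inhibitor, had 3598 and 3801 in the high-fat diet arrays, against 3541 and 3277 in the casein diet arrays. That separation amounted to 0.12 log2 (SE 0.10, limma unadjusted p = 0.31, adjusted p = 0.865).

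Several marker lists were, like clusterin and factor I, lower in the high-fat diet arrays. The 7 epithelial markers summed to 5249 and 10160 in the high-fat diet arrays, against 24110 and 11350 in the casein diet arrays, with 0 of 7 differences positive. The 4 smooth muscle markers summed to 10990 and 8922 in the high-fat diet arrays, against 13310 and 15420 in the casein diet arrays, again with 0 of 4 positive. The 4 mesothelium markers summed to 358 and 369 in the high-fat diet arrays, against 594.5 and 488.5 in the casein diet arrays, with 3 of 4 separated downward. The 6 T and NK cell markers summed to 614 and 687 in the high-fat diet arrays, against 1262 and 797 in the casein diet arrays, with 4 of 6 separated downward. Casein diet replicate 2 was the highest array for Clu, Cfi and the smooth muscle sum, whereas casein diet replicate 1 was the highest for the epithelial, gastric, mesothelium and T and NK cell sums. The part of these cells and tissues in the differences of Clu and Cfi was not tested.

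In the classical pathway, the 3 chains of C1q, the antibody-binding starter made by macrophages, overlapped between diets. C1qa had 4464 and 3282 in the high-fat diet arrays, against 4225 and 3288 in the casein diet arrays. C1qb had 3038 and 2146 in the high-fat diet arrays, against 2418 and 1952 in the casein diet arrays. The name of its brightest probe set marks probes able to match other transcripts. C1qc had 2015 and 1523 in the high-fat diet arrays, against 1731 and 1384 in the casein diet arrays. Their log2 differences were 0.04 (95% interval -0.60 to 0.68), 0.23 (-0.42 to 0.89) and 0.18 (-0.41 to 0.77), with limma adjusted p-values of 0.981, 0.869 and 0.883. These intervals leave room for a difference in either direction. All 5 C1q probe sets were higher in replicate 1 than in replicate 2 of either diet, by 1.22- to 1.42-fold in the high-fat diet arrays and 1.24- to 1.29-fold in the casein diet arrays, while the diets differed by 1.03-fold for C1qa and 1.18-fold for C1qb. Of the 10 macrophage markers, 3 had that order in both diets (Adgre1, Csf1r and Fcgr1) and the others, Lyz2 and Cd68 included, did not. Replicate 1 exceeded replicate 2 in both diets for 21.2% of all tested genes.

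C1qb and C1qc are neighbours on chromosome 4 and moved together over the arrays, so the 200 bases before their RefSeq starts are shown with the same motifs in capitals.
C1qb, chr4:136886201-136886400, minus strand: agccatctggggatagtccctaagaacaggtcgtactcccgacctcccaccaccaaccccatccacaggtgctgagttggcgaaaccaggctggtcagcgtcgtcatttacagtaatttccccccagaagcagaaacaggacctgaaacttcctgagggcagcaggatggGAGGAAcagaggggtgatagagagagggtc
C1qc, chr4:136892915-136893114, minus strand: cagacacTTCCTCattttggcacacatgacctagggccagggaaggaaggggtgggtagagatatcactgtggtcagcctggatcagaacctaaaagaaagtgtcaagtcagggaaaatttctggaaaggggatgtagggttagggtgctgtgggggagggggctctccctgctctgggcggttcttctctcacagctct
Both windows hold GAGGAA once, in C1qb on the gene's own strand and in C1qc on the opposite strand, read as TTCCTC. Among the 22 complement genes with an entry, 5 had this core (C1qb, C1qc, Fcna, C5ar2 and Cd59a), or 20% of 25 windows, against 19.0% of all windows. A match describes these letters and does not show binding.

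The proteases and C2 of the classical route were also close between diets. C1s1, which encodes the C1s protease, had 2160 and 1997 in the high-fat diet arrays, against 1836 and 2114 in the casein diet arrays. Its probe set name marks probes that can match several transcripts, so the near-identical C1s2 could add to it. C1ra, for the C1r protease, had 594 and 638 in the high-fat diet arrays, against 687 and 596 in the casein diet arrays. C2, for the protease part of the C3-splitting enzyme, had 450 and 359 in the high-fat diet arrays, against 380 and 412 in the casein diet arrays. Its 3 probe sets differed in sign (-0.13 to 0.02). The name of the brightest of them also marks probes able to match other transcripts. The log2 differences of C1s1, C1ra and C2 were 0.08, -0.06 and 0.02, with SEs of 0.12, 0.12 and 0.15 and limma adjusted p-values of 0.916, 0.938 and 0.984.

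In the terminal pathway, the 4 measured components of the C5 and pore-forming stage were all below the filter on their mean over the arrays. Hc, which encodes C5, had intensities of 45.0 and 21.0 in the high-fat diet arrays, against 25.2 and 38.2 in the casein diet arrays, with no order by diet. C9, the pore-forming unit, had 24.2 and 36.7 in the high-fat diet arrays, against 23.0 and 48.0 in the casein diet arrays. Both of these genes differed more between replicates of a diet than between diets. C6, the first unit to join C5b, had 27.1 and 25.6 in the high-fat diet arrays, against 30.7 and 34.7 in the casein diet arrays. C8g, for the gamma chain of C8, had 12.8 and 15.7 in the high-fat diet arrays, against 15.6 and 17.0 in the casein diet arrays. No difference was tested for these genes, since at this brightness a probe set may report mostly background. Of 7 hepatocyte markers with a probe set, 5 were also below the filter, and the exceptions Alb and Ttr, for albumin and transthyretin, were highest in casein diet replicate 1. There they had 279 and 478, while no other array exceeded 70.2 for Alb or 57.9 for Ttr.

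Among the membrane regulators, Cd55, for the decay-accelerating factor that splits the C3-cleaving enzymes, had 292 and 282 in the high-fat diet arrays, against 313 and 290 in the casein diet arrays. Cr1l, which encodes Crry, the rodent membrane inhibitor of C3 activation, had 635 and 793 in the high-fat diet arrays, against 784 and 721 in the casein diet arrays. Neither gene separated the diets. Cd59a, for the inhibitor of pore assembly, had 573 and 445 in the high-fat diet arrays, against 361 and 551 in the casein diet arrays. Cd46, for a cofactor of factor I that mice express mainly in the testis, had 35.1 and 43.4 in the high-fat diet arrays, against 38.5 and 36.5 in the casein diet arrays, just above the filter. The diets overlapped for all 4 genes, whose log2 differences were -0.07, -0.08, 0.18 and 0.06. The 95% interval was narrowest for Cd55 (-0.35 to 0.21) and widest for Cd59a (-0.59 to 0.95).

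Other complement genes, outside the 31, were listed as well, and 11 of the 32 were bright enough to test. None passed (0 of 11 by limma, smallest adjusted p = 0.863), and 1 had an unadjusted p under 0.05. That gene was Cd93, a receptor of endothelial and myeloid cells once taken for a C1q receptor, with 1146 and 1202 in the high-fat diet arrays, against 548 and 836 in the casein diet arrays (log2 difference 0.79, SE 0.24, limma unadjusted p = 0.0319, adjusted p = 0.863). All 4 endothelial markers were separated in the same direction, summing to 1181 and 1280 in the high-fat diet arrays, against 636 and 853 in the casein diet arrays, and their part in the value of Cd93 was not tested. The chains of the C3 fragment receptors on leukocytes lay elsewhere. Itgax, the alpha chain of complement receptor 4, had 333 and 344 in the high-fat diet arrays, against 432 and 785 in the casein diet arrays (log2 difference -0.78, SE 0.33). Itgb2, the shared beta chain, had 1766 and 1695 in the high-fat diet arrays, against 1968 and 2594 in the casein diet arrays (log2 difference -0.39, SE 0.17). Itgam, the alpha chain of complement receptor 3, had 294 and 210 in the high-fat diet arrays, against 189 and 284 in the casein diet arrays, and overlapped. Csmd1, a membrane inhibitor of complement, differed by 0.76 (SE 0.34), and Ptx3, a pentraxin that binds C1q, by 0.34 (SE 0.21). For Csmd1, casein diet replicate 1 was the lowest array (36.6, against 69.2 in casein diet replicate 2). The other probe sets of Csmd1, all below the filter, differed by -0.20, 0.11 and 0.12. Cpn1, for the catalytic chain of the enzyme that trims C3a and C5a, had 19.8 and 32.2 in the high-fat diet arrays, against 122 and 32.4 in the casein diet arrays, so its difference of -1.31 (SE 0.74) came from casein diet replicate 1. Cfd was not analysed here.

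Single arrays decided the size of several differences. High-fat diet replicate 1, the array with the muscle signal, was the highest for 10 of the 20 complement genes, where it was the highest for 23.6% of all tested genes. It was the highest for C1qa, C1qb, C1qc, C3ar1, C5ar1, Cfp and Masp1. Casein diet replicate 1 was the lowest for 6 of the 20 and for 34.5% of all tested genes. Clu, Cfp and C5ar1 were the genes whose difference moved by less than 1.5 times whichever array was left out, while the others, C3ar1 and Masp1 included, moved by more.

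**Figure D4:**
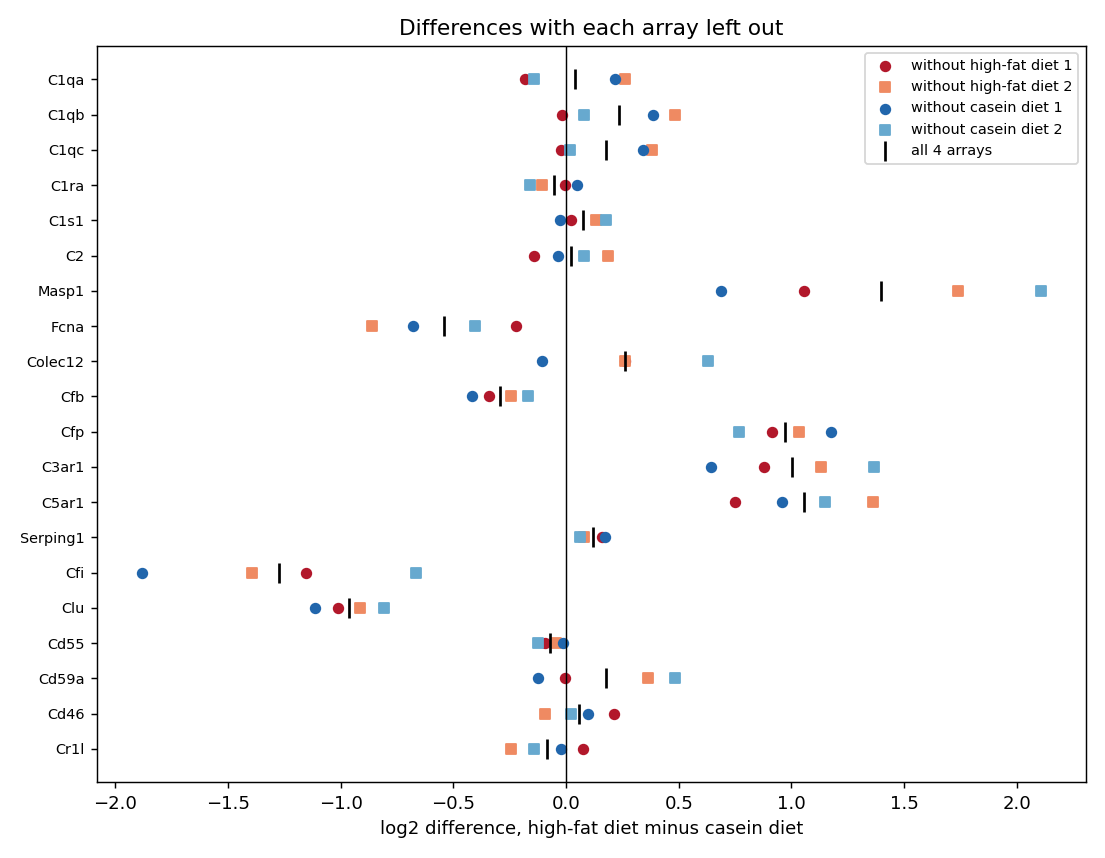
Log2 difference, high-fat diet minus casein diet, of the 20 complement genes with all 4 arrays (bar) and with each array left out (red, a high-fat diet array; blue, a casein diet array; circles, replicate 1; squares, replicate 2). Clu, Cfp and C5ar1 keep their side and most of their size, whereas Masp1 and Cfi spread widely and C1qa, C2, Cd59a and Colec12 fall on both sides of 0.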

How the data were processed

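RNA from endometriotic lesions was hybridised to 1-colour Affymetrix 3′ arrays, 0.1 µg of total RNA each, per the labels' protocols. The deposited intensity values were linear and already alike between arrays. GCOS and RMA are named in the submitters' processing notes, and the steps by which the authors reached linear values, detection calls, scan dates and a genome build were not given in the sources used here, so no batch could be tested. Scaling arrays alike hides a shift shared by most genes.

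Log2 of each intensity was taken with no pseudocount. Of 45101 probe sets, 34945 had 1 gene symbol in the platform annotation, 932 had several, 9160 had none and 64 were controls. All 47 complement probe sets matched the RefSeq gene table by gene identifier. The probe set with the highest mean log2 value stood for each gene, and the genes tested were those whose mean reached the 40th percentile of all probe sets other than controls (intensity 33.9). limma 3.58.1 (R 4.3.3) gave two-sided moderated tests of the high-fat diet against the casein diet, with standard errors (SE), 95% intervals (3.8 total degrees of freedom) and Benjamini-Hochberg adjustment over 12797 genes. The number of arrays limits the precision: an exact two-sided permutation test of 2 arrays against 2 cannot go below p = 0.333, so no single value was tested outside limma.

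Genes and lists were chosen with earlier results of these data known, so no list test was run and lists are described by counts and medians. All measured genes of the set are named. Of the other complement genes, those named are the 6 with the smallest p, with Itgam added after its values were seen as the partner of Itgb2. Marker lists are given by summed intensity, and single markers were named after their values were seen. Same-numbered replicates were not paired, since nothing in the labels ties them and their deviations from the diet means correlated at -0.0217 over 12797 genes. Figures were drawn with matplotlib 3.10.9.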

Additional observations from a re-analysis of the deposited data

How the results depend on the processing

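Results were recomputed with a block for the replicate number, median centring, quantile normalisation, no filter and a filter at the 60th percentile. Other settings were the mean of all probe sets, a pseudocount of 16, array weights, a trend and robust prior, and each array left out. Testing every probe set, and an adjusted p of 0.10, gave counts of called genes only. The 60th percentile filter kept 17 of the 20 complement genes. No complement gene was called under any of these settings. With the replicate block 0 genes and 0 complement genes were called, and the median was again 0.07. Of 257 differences of single complement genes under the alternatives, 243 kept their direction and 14 reversed. The median of the complement genes was 0.0032 with no filter, where 26 genes entered, and ran from -0.0049 without high-fat diet replicate 1 to 0.16 without high-fat diet replicate 2. Genes called over the array ran from 0 to 17 with 1 array left out, the 17 without casein diet replicate 2. In that fit the lone casein diet array is assumed to vary like the high-fat diet arrays. The cause was not tested. As the mean of all probe sets, the difference of C2 was -0.063, and those of Cfp, C5ar1 and Masp1 were 0.53, 0.64 and 0.88. The unadjusted p of Cfi was also under 0.05 with median centring (0.0473), array weights (0.0406) and the 60th percentile filter (0.049). With 1 array left out, these genes changed sign: C1qa (-0.18 to 0.26), C1qb (-0.017 to 0.48), C1qc (-0.023 to 0.38), C1ra (-0.16 to 0.048), C1s1 (-0.025 to 0.18), C2 (-0.14 to 0.18), Cd46 (-0.094 to 0.21), Cd59a (-0.13 to 0.48), Colec12 (-0.11 to 0.63) and Cr1l (-0.24 to 0.076). Signal near the filter limits Fcna, Cd46, C5ar1 and the terminal pathway genes. With the pseudocount of 16 the difference of C5ar1 was 0.85, and C5ar1 did not reach the 60th percentile filter.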
